A study of Drosophila melanogaster with 3 samples.

Results

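Single promoters are here transcript starts without starts of protein-coding genes on both strands close by. Of the 3811 reproducible peak summits of the Senseless protein, 1207 lay at them (31.7%, exact 95% binomial interval 30.2 to 33.2). A summit, the base of strongest signal in a peak, was counted when it lay within 500 bp of any annotated transcript start. It was left out when starts of protein-coding genes on both strands lay within 500 bp, which placed 648 further summits (17.0%) at divergent promoters. The remaining 1956 summits lay away from transcript starts. A non-coding start did not make a promoter divergent. Thus 53 of the 1207 summits (4.39%) had a non-coding start within 500 bp on the strand opposite to the coding start. The signal chose the reproducible list and gave the place of each summit, and within that list the position relative to annotated starts chose the members.

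The data came from 1 group of 3 biological replicates. Each was a collection of whole Drosophila melanogaster embryos of both sexes from a transgenic line, aged 4 to 14 hours. The embryos carried Senseless (sens) with green fluorescent protein (GFP) fused to its C-terminal end, and chromatin sonicated to 200 to 800 bp was immunoprecipitated with an antibody against GFP. All samples carry the fusion, so there was no contrast between conditions, and the deposited notes list no control for the peak lists on the dm6 genome build. In whole embryos, strong binding in few cells and weak binding in many cells cannot be told apart. Replicate lists held 30000, 30000 and 27681 peaks, and the reproducible peaks were exactly the 3811 with the highest signal in the pooled list of 28357.

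Senseless is a zinc finger transcription factor of the Gfi family that acts in the precursor cells of sensory organs, in the embryonic salivary gland and in other tissues, and it binds sites with the core AAATCA. In flies, promoters of genes that every cell uses often carry the DNA replication-related element (DRE), bound by the factor DREF, or Motif 1, bound by M1BP. Promoters of regulated genes more often carry a TATA box, an initiator or GAGA repeats, and pairs of housekeeping genes often share a divergent promoter.

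The promoters of the 6 strongest members outside 1 chromosome arm, for which no sequence is shown, give the setting of the binding. Each line holds the 70 bases before and the 30 bases from the nearest transcript start, 5′ to 3′ on the strand of the gene, from the RefSeq sequence of the dm6 assembly. Capitals mark matches to the 7 motifs searched on both strands, which are given with their letters further on.
Ugalt, chrX:2703823-2703922, minus strand: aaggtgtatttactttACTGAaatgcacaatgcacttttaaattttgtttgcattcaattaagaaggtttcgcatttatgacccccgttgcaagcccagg
CG14100, chr3L:19590495-19590594, minus strand: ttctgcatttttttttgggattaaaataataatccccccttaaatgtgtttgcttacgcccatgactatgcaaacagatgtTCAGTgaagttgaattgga
ph-p, chrX:2136826-2136925, minus strand: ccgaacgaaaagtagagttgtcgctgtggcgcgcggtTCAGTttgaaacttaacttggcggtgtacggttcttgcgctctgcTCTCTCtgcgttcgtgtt
lncRNA:CR31840, chr2L:14024070-14024169, minus strand: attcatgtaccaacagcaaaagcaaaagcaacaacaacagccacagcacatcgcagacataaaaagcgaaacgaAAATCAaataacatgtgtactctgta
PNPase, chr3R:31404539-31404638, minus strand: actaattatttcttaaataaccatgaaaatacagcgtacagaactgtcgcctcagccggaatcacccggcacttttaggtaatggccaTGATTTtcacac
CG13921, chr3L:1746837-1746936, plus strand: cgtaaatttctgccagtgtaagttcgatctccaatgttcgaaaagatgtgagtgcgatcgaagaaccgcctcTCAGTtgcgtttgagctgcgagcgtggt
The summits of Ugalt, CG14100, lncRNA:CR31840 and PNPase lay within these stretches or close to them, at −27, −87, +17 and −77 bp from the start. Those of CG13921 and ph-p lay further upstream, at −136 and −468 bp. None of these 6 stretches held the DRE or Motif 1 core.

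The windows around the summits themselves show the strongest member, again outside the same arm, with each of 5 motifs, and the distal summit of ph-p. Each line holds the 101 bases centred on the summit, on the strand of the gene with the nearest start.
eEF1gamma, chr3R:29220051-29220151, plus strand: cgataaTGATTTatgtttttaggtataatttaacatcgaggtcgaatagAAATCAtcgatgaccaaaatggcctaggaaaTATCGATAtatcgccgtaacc
RpL30, chr2L:19009249-19009349, minus strand: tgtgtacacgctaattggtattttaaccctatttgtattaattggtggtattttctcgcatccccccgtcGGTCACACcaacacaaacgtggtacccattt
CG13921, chr3L:1746721-1746821, plus strand: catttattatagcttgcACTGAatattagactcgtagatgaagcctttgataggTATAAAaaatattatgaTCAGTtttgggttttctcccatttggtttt
ph-p, chrX:2137273-2137373, minus strand: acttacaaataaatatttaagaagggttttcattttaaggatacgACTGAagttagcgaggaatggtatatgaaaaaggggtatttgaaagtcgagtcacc
Eip75B, chr3L:17999742-17999842, minus strand: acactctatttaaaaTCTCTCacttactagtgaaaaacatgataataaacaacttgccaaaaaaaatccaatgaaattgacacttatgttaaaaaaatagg
CG3009, chrX:4666965-4667065, minus strand: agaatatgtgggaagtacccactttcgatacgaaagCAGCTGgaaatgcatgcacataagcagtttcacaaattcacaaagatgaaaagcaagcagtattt
The eEF1gamma window held the DRE core and the core of the Senseless site, in 2 copies, and the RpL30 window the Motif 1 core. The CG13921 window held a TATA box and the initiator letters, which the ph-p window also held. The Eip75B window held a GAGA repeat and the CG3009 window an E-box. The E-box letters are those bound by proneural factors of the basic helix-loop-helix class.

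Members ranged over the whole reproducible list, with ranks by signal between 2 and 3810 and a median of 1949. The strongest member was at px, a gene of wing vein patterning, with a signal value of 2957 at 2R position 22514306 and rank 2 in each of the 3 replicates. Ugalt, the Golgi transporter of UDP-galactose, ranked 4, 4 and 1 in replicates 1, 2 and 3, and CG14100 ranked 5, 6 and 4. These 3 were thus among the first 6 peaks of every replicate. Next came ph-p, which encodes a subunit of Polycomb repressive complex 1, at ranks 7, 8 and 7, and CG1888 at ranks 12, 11 and 10. The long non-coding RNA gene lncRNA:CR31840 ranked 6, 29 and 13 and varied most among the first 8 members. The mitochondrial ribosomal protein gene mRpL41 ranked 14, 12 and 17, and PNPase, a mitochondrial RNA-degrading enzyme, ranked 20, 22 and 21. The next 7 were CG13921, CG18549, gish (a casein kinase), Sox14 (an HMG-box transcription factor), lncRNA:CR31044, larp (an RNA-binding protein) and lncRNA:CR44619. Among these, CG18549 stood lowest in one replicate, at ranks 18, 18 and 45.

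**Figure D1:**
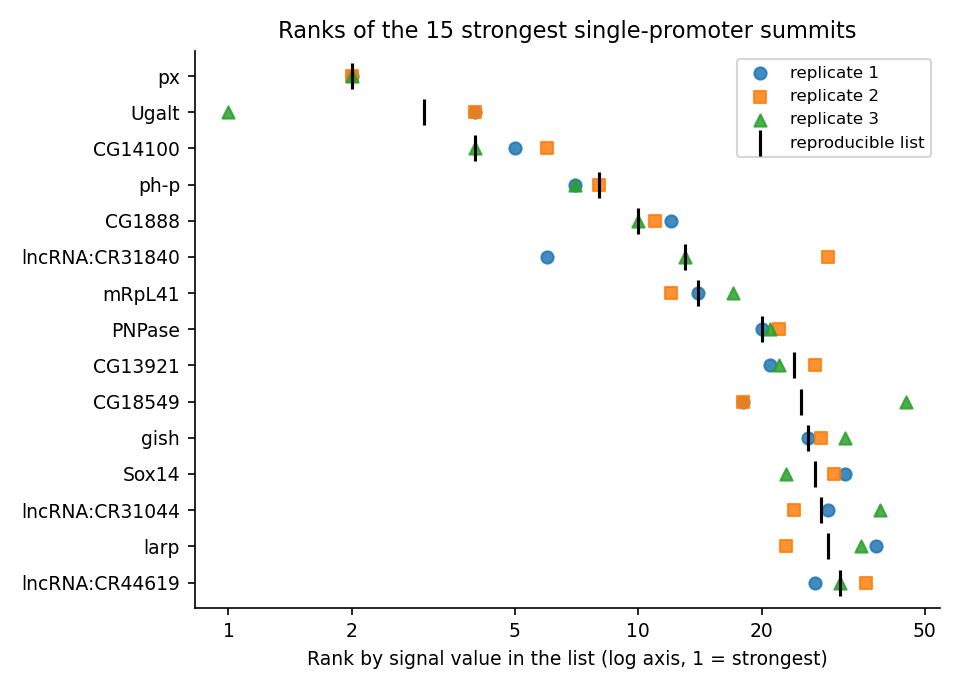
Rank by signal value of the 15 strongest single-promoter summits, on a log axis, in each replicate's full list (symbols) and in the reproducible list (black bars). All symbols lie between rank 1 and rank 45; lncRNA:CR31840 spans ranks 6 to 29.

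At the other end of the list stood Abca3, at rank 3810, and CG3732, at rank 3807. Abca3 ranked 12231, 2199 and 4030 in replicates 1, 2 and 3, and CG3732 ranked 3670, 2683 and 5288. Their places in the replicates thus spread far wider than those of the strongest members.

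The replicates held most members. Of the 1207 members, 757 (62.7%, exact 95% interval 59.9 to 65.5) fell within the 3811 strongest peaks of every replicate, against 435 of 648 (67.1%, 63.4 to 70.7) at divergent promoters and 64.3% of all reproducible peaks. The difference of −4.41 percentage points had a 95% interval of −8.94 to 0.12 (normal approximation, counting error over peaks only). It lay between −1.27 and −4.93 when each replicate was left out of the count in turn. It was −9.2 points with summits within 250 bp of a start, −0.87 points among the 1905 strongest reproducible peaks and −1.88 points with 2 times as many peaks taken per replicate. The share fell with signal: split into 4 equal groups by signal, numbered from 1 (strongest) to 4 (weakest), the reproducible list gave shares of 98.1%, 92.2%, 55.2% and 7.79%. Part of this decline follows from taking the same number of peaks in each replicate. In the full lists, 1184 members (98.1%) had a peak in all 3 replicates. Over those 1184 members, the ranks of the replicate peaks were related with a Spearman rho of 0.733 between replicates 1 and 2, 0.665 between 1 and 3, and 0.719 between 2 and 3, across summits of the same 3 libraries. Each replicate's own 3811 strongest peaks held 1264, 1223 and 1212 summits at single promoters, or 32.4% ± 0.72 (SD, n = 3), so the share of single promoters varied little between replicates.

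Protein-coding genes were the main neighbours. The nearest start belonged to a protein-coding gene for 1070 members (88.7%), to a long non-coding RNA for 98, to an antisense RNA for 14, to a small nuclear RNA (snRNA) for 8 and to a transfer RNA (tRNA) for 6. The remaining 11 were 4 of other non-coding RNAs, 3 of small nucleolar RNAs, 2 of microRNAs and 2 of pseudogenes. A protein-coding start within 500 bp, nearest or not, was present for 1093 members (90.6%), and 33 of these had starts of more than 1 protein-coding gene on the same strand. Some members have a partner beyond the limit, since 133 (11.0%) had a protein-coding start on the other strand at 501 to 1000 bp. Among the 15 strongest members, these were PNPase (600 bp), mRpL41 (623 bp) and Ugalt (692 bp), whose place among single promoters rests on the limit. The nearest genes numbered 1114, of which 1034 had 1 member each and 72 had 2.

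Signal at the members without a protein-coding start was not confined to weak peaks. These 114 members had a median rank of 1767, against 1973 for the 1093 with one, and 82 of them (71.9%, 62.7 to 79.9) were among the strongest peaks of all 3 replicates, against 675 (61.8%, 58.8 to 64.6). They were spread more evenly around the start: 63 of 114 lay upstream (55.3%, 45.7 to 64.6), against 877 of 1093 (80.2%, 77.8 to 82.6). Long non-coding RNA genes made up 84 of the 114, led by lncRNA:CR31840, lncRNA:CR31044 and lncRNA:CR44619. The last of these had a second member, at rank 78, so that its start lay between summits at −453 and +500 bp.

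Small RNA genes were few but not evenly hit. Of the 32 annotated single starts of snRNA genes, which encode the RNAs of the spliceosome and the transcription regulator 7SK, 9 had a member within 500 bp (28.1%, exact 95% interval 13.7 to 46.7). The interval takes starts as independent, although starts close together can share a summit. The share was 8.68% for 15007 single starts of protein-coding genes, 5.60% for 2052 of long non-coding RNAs and 5.17% for 290 of tRNAs. For ribosomal RNAs it was 0 of 99, with an exact 95% upper bound of 3.66% that again takes starts as independent. Whether reads can be placed at single ribosomal RNA and tRNA genes was not tested, so the 0 does not show absent binding. The snRNA count was 8, 8 and 7 of 32 starts with the strongest peaks of replicates 1, 2 and 3, and the protein-coding share 8.86%, 8.64% and 8.60%. As a share, it thus stood above the protein-coding share in each replicate, with 32 starts behind it; several snRNA genes are near-identical copies, among which reads cannot always be placed. The 8 members nearest to an snRNA were of middle or low signal. They were found at U5:63BC (2 members, ranks 1675 and 3622), U1:95Ca (rank 1708), U2:34ABb (1885), U6:96Ac (2062), U1:21D (2497), U4:39B (2535) and 7SKa (3565). Of the 8, 7 lay downstream of the start, at 38 to 243 bp, and the U6:96Ac summit lay 109 bp upstream. The strongest member nearest to a tRNA, tRNA:Tyr-GTA-1-8, ranked 89 in the reproducible list. The strongest nearest to the other types were asRNA:CR45928 (antisense RNA) at rank 120, mir-9378 (microRNA) at rank 159, CR42875 (pseudogene) at rank 334, the snoRNA host gene Uhg4 at rank 492 and snoRNA:Or-ACA6 at rank 908. Of these, tRNA:Tyr-GTA-1-8, asRNA:CR45928 and CR42875 had a protein-coding start of another gene within 500 bp, that of CG8036, eIF6 and CG10068 in this order, so the summit cannot be given to one gene.

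The nearest start was the only annotated start of its gene for 541 members (44.8%), the first of several for 283 (23.4%) and an alternative start further downstream for 383 (31.7%, 29.1 to 34.4). Among all 19353 annotated single starts, 60.03% were only starts, 13.9% first and 26.0% alternative, and among 4645 annotated divergent starts 17.2% were alternative. At divergent promoters, 73 of 648 summits (11.3%, 8.94 to 14.0) had an alternative start nearest. In the replicates' strongest peaks the alternative share was 31.9% ± 0.55 at single promoters and 12.3% ± 0.93 at divergent ones (SD, n = 3). The rule bears on this contrast, since an alternative start lies downstream of its gene's first start and has a coding start on the other strand nearby less often in the annotation too, so it is given with no test. Seen from the annotation, 540 of 5037 alternative single starts (10.7%) had a member within 500 bp, 349 of 2699 first starts (12.9%) and 610 of 11617 only starts (5.25%). Starts of genes with several starts were thus hit more often than only starts, although starts close together share a summit. These classes were not split by gene type, and non-coding starts, apart from those of snRNAs, were hit less often than protein-coding ones. Of the 1032 protein-coding genes that had a member within 500 bp of one of their starts, 57.8% had several starts and the median gene length was 5899 bp. Among 1255 genes with divergent-promoter summits only, 34.1% had several starts and the median length was 2385 bp, and among 11658 genes with neither, 22.9% and 2007 bp. A gene counts when any of its starts has a summit nearby, so the rule itself counts genes with several starts more readily. These gene values are given with no test.

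**Figure D2:**
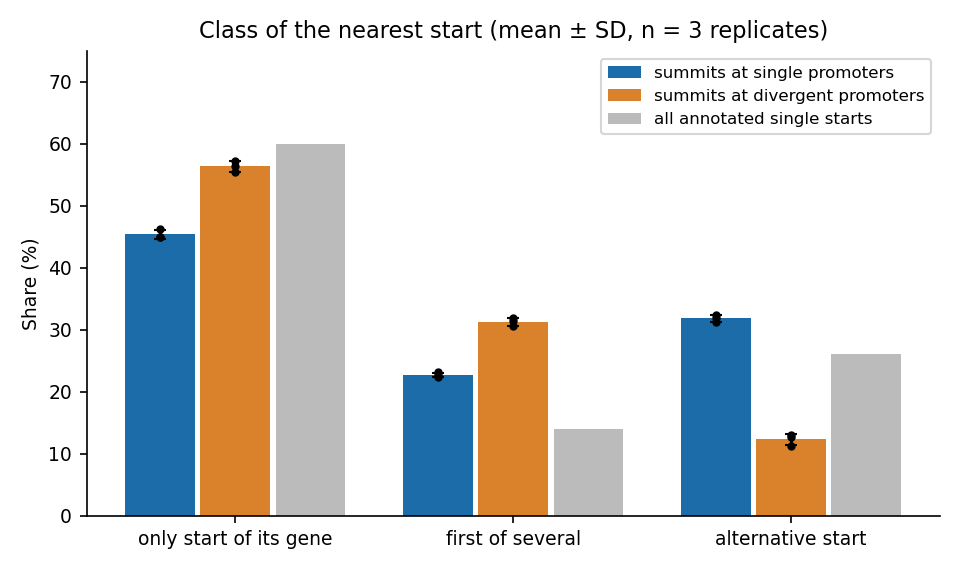
Share of summits whose nearest start is the only, the first or an alternative start of its gene, as the mean ± SD of the 3 replicates' 3811 strongest peaks (points: replicates), for single and divergent promoters, with the share among all 19353 annotated single starts (grey). Alternative starts make up 31.9% at single promoters, 12.3% at divergent promoters and 26.0% of the annotated single starts.

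An alternative start lies downstream of the first start of its gene, and of the 383 summits at such starts 278 (72.6%) fell in introns and 98 in 5′ untranslated regions. They were placed further upstream of their start, with a median offset of −165 bp, than those at first starts (−99 bp) or only starts (−117 bp). The strongest after px, ph-p and CG1888 were PNPase, gish and larp. Some genes with a row of alternative starts, each a place where a summit can count, had several members. Rtnl1, a reticulon of the endoplasmic reticulum with 7 annotated starts, had 5 members at ranks 34, 343, 837, 2218 and 3130. All of these lay 195 to 457 bp upstream of alternative starts, and 2 shared the same start. The fourth ranked 9451 in replicate 1, and the fifth had no peak in replicates 1 and 3 and ranked 4981 in replicate 2, so it was among the strongest peaks of no replicate. Ptpmeg2, a protein tyrosine phosphatase gene with 6 starts, also had 5, at ranks 134, 161, 344, 1465 and 2664. Of these 5, 4 lay at alternative starts, at −27 to −215 bp, and the weakest lay 46 bp into the first. RapGAP1, a GTPase activator, had 4 members, and larp, spi (a ligand of the EGF receptor), dnc (a cyclic AMP phosphodiesterase), Drat and Dp had 3 each.

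Summits lay mostly upstream. Of the 1207 members, 940 were upstream of the nearest start (77.9%, 75.4 to 80.2), with quartiles of the offset at −237.5, −126 and −15.5 bp. Within 100 bp of the start lay 381 members (31.6%), over 300 bp upstream 16.2% and over 300 bp downstream 6.21%. The fall over the start was steep, with 262 members at 1 to 100 bp upstream and 119 at 0 to 100 bp downstream. The median offset was −119, −134 and −114 bp in the strongest peaks of replicates 1, 2 and 3. Fragments were 200 to 800 bp long, and how far the position of a single summit varies between replicates was not measured. By annotated feature, 531 members lay outside genes, 377 in introns, 200 in 5′ untranslated regions, 71 in other exons and 27 in 3′ untranslated regions. Only 1 lay in a coding exon, at Hakai (a ubiquitin ligase), 166 bp into the gene, with 70.3% GC around it.

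The median distance to the nearest start was 166 bp at single promoters, against 90 bp at divergent promoters. A divergent summit has at least 2 starts to choose the nearest from, so the rule itself makes its distance smaller, and the difference of 76 bp is given as a description with no test. It also followed the window, at 19 bp with summits within 250 bp of a start and 148 bp within 1000 bp. For the share upstream, single minus divergent promoters gave −3.76 percentage points in the reproducible list (replicates −4.19 ± 1.63, SD, n = 3). A summit between a pair of divergent starts is upstream of both, so the rule bears on this share as well and no test is read from it. The difference was −7.98 points with a window of 1000 bp. It was between −0.95 and −1.88 points when only peaks among the strongest of both other replicates were kept, and among the 1905 strongest reproducible peaks its sign turned, at 2.06 points. Just inside the limit of 500 bp lay lncRNA:CR44619 at 500 bp and CG5171 at 499 bp downstream, and just outside lay summits 502 bp upstream of COX7AL2 and 502 bp downstream of lncRNA:CR45940.

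**Figure D3:**
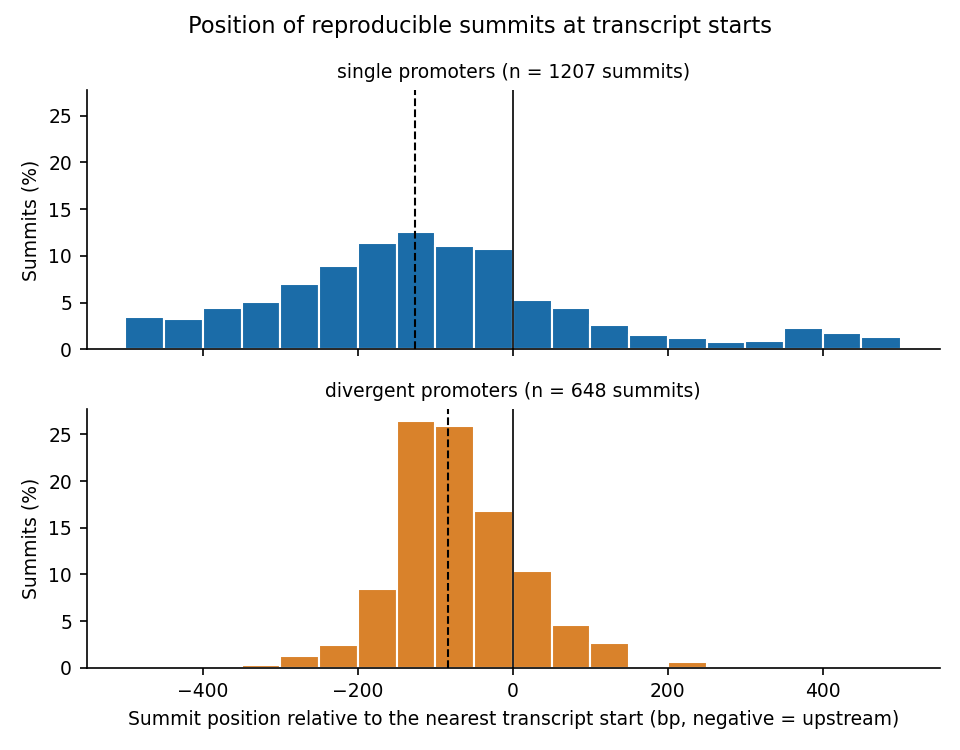
Position of summits relative to the nearest transcript start in bins of 50 bp, as a share of summits, for the 1207 single-promoter summits (top) and the 648 divergent-promoter summits (bottom). The solid line marks the start and the dashed line the median, −126 bp at single and −84 bp at divergent promoters; the single-promoter summits spread over the whole window.

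The strongest members lay furthest from the start. In signal groups 1 to 4 of the reproducible list, from strongest to weakest, the median distance of the members was 205, 167, 140 and 129 bp, and the share upstream was 84.7%, 79.5%, 76.1% and 71.1%. Group 1 lay 67.0, 76.5 and 66.0 bp further out than group 4 in replicates 1, 2 and 3, each ranked by its own signal (69.8 ± 5.8, SD, n = 3). At divergent promoters the same difference was 34, 26.5 and 16.5 bp. The groups held 321, 268, 310 and 308 members, and 117, 82, 93 and 91 of these had an alternative start nearest. Group 1 thus had the highest share of alternative starts, 36.4%, and group 4 the lowest, 29.5%. In the list as a whole, members stood 5.97 percentiles of signal below divergent summits at the median (replicates −5.56 ± 2.78, SD, n = 3). The exact two-sided sign-flip permutation test over 3 replicates cannot go below p = 0.25, the value it gave (0.3 after Benjamini-Hochberg adjustment over 6 differences). The difference in signal percentile was −11.5 with a window of 250 bp and −3.25 with 1000 bp. It was −1.77 to −3.61 when each replicate was left out and 1.67, of the other sign, among the 1905 strongest reproducible peaks.

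Base composition also differed. Mean GC content within 50 bp of the summit was 36.2% at the members, against 42.6% in flank windows of the same length 500 bp away, and it was lower at the summit than in the flanks for 835 of 1207 members. The windows around the nearest starts of the same members held 47.1% GC, so the summits lay in sequence poorer in GC than the starts they were assigned to. Divergent summits were poorer still, at 33.2%, with flanks of 50.2%. Summits away from starts held 33.4%, with flanks of 42.1%, so the dip was not particular to promoters and the members had the highest GC content. The difference of 2.99 percentage points between single and divergent summits was 3.02, 2.50 and 2.48 points in replicates 1, 2 and 3 (exact permutation p = 0.25, 0.3 adjusted over 6). It was 5.43 points with summits within 250 bp of a start, 1.62 points within 1000 bp and 1.72 points among the 1905 strongest reproducible peaks. GC content rose as signal fell: it was 32.4%, 35.5%, 37.8% and 39.1% in signal groups 1 to 4 of the members. Group 4 stood above group 1 in every replicate, and group 1 minus group 4 gave −6.20, −6.78 and −5.45 points in replicates 1, 2 and 3. Divergent summits followed the same course, at 31.2%, 32.9%, 33.9% and 35.1% in groups 1 to 4 of the reproducible list. GC content can affect the recovery of fragments in sequencing, and with no control listed its part in the signal was not tested.

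**Figure D4:**
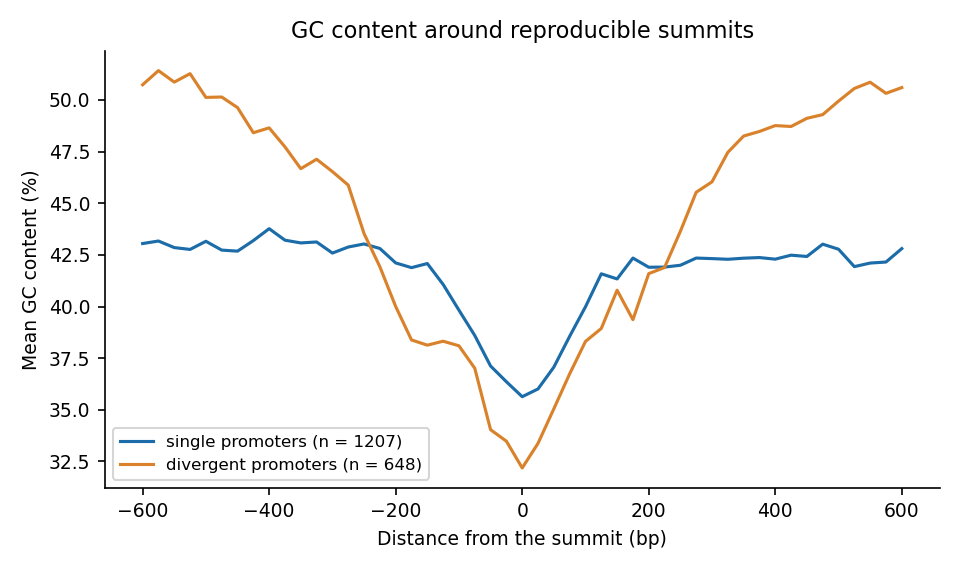
Mean GC content in windows of 25 bp at distances of −600 to 600 bp from the summit, along the reference strand, for single and divergent promoters. Both have their lowest value at the summit, 35.6% at single and 32.2% at divergent promoters; beyond 200 bp the single promoters stay near 42% to 43% while the divergent promoters rise to about 50%.

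Of the 7 motifs, the DRE core had the largest ratio of its share at the summits to that in the flanks. The core TATCGATA, a palindrome, was found within 50 bp of 40 members (3.31%), in 0.249% of the flank windows and around 0.358% of the summits away from starts. It was found in 5.09% of divergent windows and in 2.32% of the windows of the same length around 19059 annotated single starts. In such windows around the members' nearest starts it was found in 4.09%. Its midpoint lay at a median of 48 bp upstream of the start, and it was commoner at weaker members: 1.25%, 2.24%, 4.52% and 5.19% in signal groups 1 to 4. In the replicates' own lists, group 1 held 1.54%, 0.915% and 0.952% and group 4 held 3.68%, 2.88% and 2.69%. The rise was not steady there, with replicate means of 1.14%, 2.32%, 3.27% and 3.08%. Divergent summits of the reproducible list held 3.37%, 4.07%, 7.69% and 5.63%. Weaker members also lay nearer the start, and the part of this in the trend was not tested. Members at alternative starts carried the DRE core in 2 of 383 cases (0.522%), against 14 of 283 at first starts (4.95%) and 24 of 541 at only starts (4.44%). The share over all members was 2.46% ± 0.22 in the replicates (SD, n = 3), below the 3.31% of the reproducible list, and was 2.00% with replicate 2 left out. Single minus divergent promoters gave −1.78 points, and −2.87, −2.60 and −2.76 points in replicates 1, 2 and 3 (−2.74 ± 0.13, SD, n = 3, exact permutation p = 0.25, 0.3 adjusted over 6). That difference was −0.021 points with summits within 250 bp of a start, −2.89 points within 1000 bp and −0.816 points with first starts only. It was −1.05 points with the core sought within 25 bp of the summit and −6.68 points within 100 bp.

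**Figure D5:**
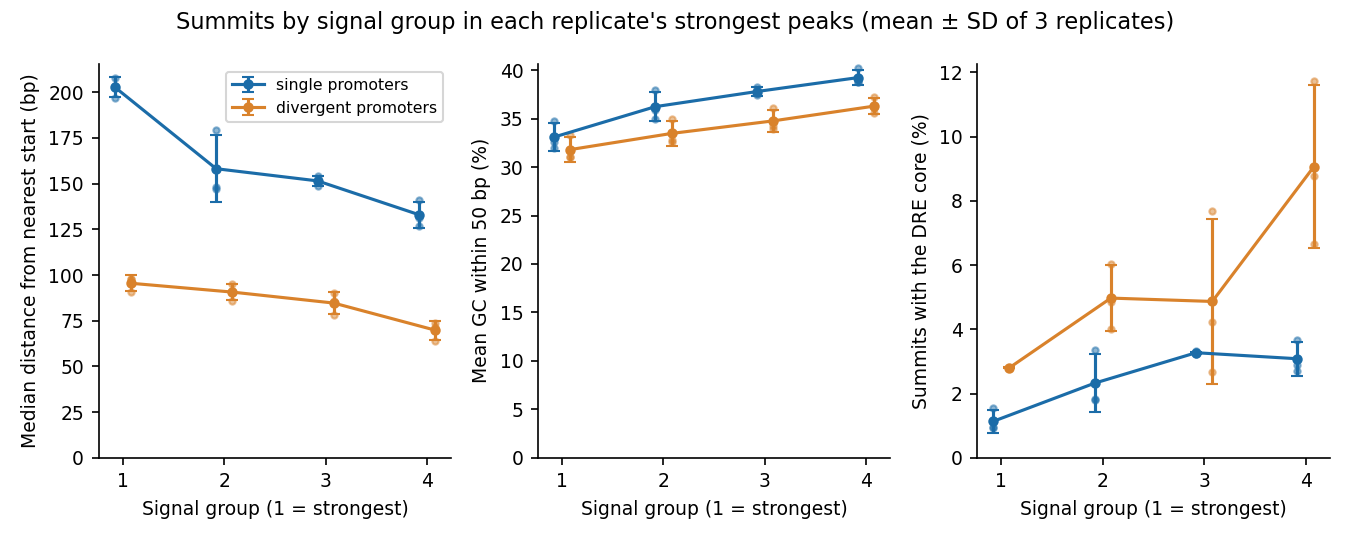
Median distance from the nearest start, mean GC content within 50 bp of the summit and share of summits with the DRE core, by signal group (1 = strongest) in each replicate's 3811 strongest peaks, as the mean ± SD of 3 replicates (small points: replicates), at single and divergent promoters. Single-promoter summits lie 203 ± 5.5 bp from the start in group 1 and 133 ± 7.2 bp in group 4, while their GC content is 33.1% ± 1.4 in group 1 and 39.2% ± 0.82 in group 4.

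The other motifs were closer to their surroundings, and no motif's letters contain another's. The Motif 1 core GGTCACAC was at 16 members (1.33%, flanks 0.373%, all single starts 2.55%), of which 11 were in signal group 4. The TATA box letters TATAAA were at 219 members (18.1%, flanks 12.4%, all single starts 15.6%) and at 24.4% of divergent summits, whose flanks held 4.86%. The initiator letters TCAGT were at 222 members (18.4%, flanks 15.04%) and in 32.2% of the windows around all single starts, the place of the initiator in promoters that have one. GAGAGA, the repeat bound by GAGA factor, was at 58 members (4.81%, flanks 5.30%, all single starts 4.22%) and at 7 of 648 divergent summits (1.08%). The E-box CAGCTG was at 49 members (4.06%, flanks 4.81%, all single starts 6.30%). Around the summits away from starts, TATAAA was at 20.1% and the initiator letters at 19.7%, both above the members. GAGAGA was there at 4.8%, the E-box at 2.40% and the Motif 1 core at 0.307%. The Senseless core AAATCA was at 161 members (13.3%, flanks 10.6%, all single starts 11.8%) and at 14.0% of divergent summits. It was at 14.7% of summits away from starts, whose flanks held 10.7%. Single minus divergent was −0.70 points for this core and −0.076, −1.56 and 0.232 points in replicates 1, 2 and 3, with no common sign (exact permutation p = 0.75). None of the 7 motifs was present in 596 member windows (49.4%). The shares at all single starts come from windows centred on starts, unlike those at the members. In windows centred on the members' nearest starts, TATAAA was at 8.26% and the Senseless core at 8.60%, both below all single starts. Above them stood the Motif 1 core at 4.34%, the E-box at 9.87%, GAGAGA at 6.64% and the initiator letters at 33.9%. The TATAAA letters near the summits had a median position of −163.5 bp from the start. A match to such short letters is a description of the window and not a bound site.

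Gene lists were read against the background of 1032 of 13945 protein-coding genes (7.40%) that had a member within 500 bp of one of their starts. The cytosolic ribosomal protein genes, which build the ribosome, had 25 of 91 (27.5%), and 28, 27 and 27 in replicates 1, 2 and 3. The strongest were RpL23A, RpL24 and RpL22, at ranks 400, 672 and 691, and 29 of the 91 (31.9%) had a divergent-promoter summit, against 1286 of all 13945 protein-coding genes (9.22%). The 26 summits at these genes lay close to the start, with a median offset of −17.5 bp and 24 of 26 within 100 bp, against 357 of the other 1181 members (30.2%) within 100 bp. Within 100 bp lay 82.1%, 86.2% and 96.3% of such summits in replicates 1, 2 and 3. Promoters of ribosomal protein genes carry a polypyrimidine initiator in flies, and of the 26 windows 6 held the DRE core, 6 the TATA box letters, 2 the initiator letters, 1 the Motif 1 core and 1 the Senseless core. Over all members the DRE core was at 3.31% and the TATA box letters at 18.1%.

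The other housekeeping lists had 1 to 7 genes each at single promoters, counts in which single genes carry the share. The mitochondrial ribosomal protein genes had 2 of 73 (2.74%), mRpL41 at rank 14 and mRpL4 at rank 1011, and 23 of 73 (31.5%) had a divergent-promoter summit. Proteasome subunit genes had 2 of 48 (Rpn11 and Rpn12), respiratory chain genes 3 of 80 (ATPsynO, ND-B17 and UQCR-14), aminoacyl-tRNA synthetase genes 2 of 33 (PheRS-m and AlaRS) and Mediator genes 1 of 29 (MED4, whose summit was nearest to the antisense RNA asRNA:CR43470). The single-promoter shares of these 4 lists were 4.17%, 3.75%, 6.06% and 3.45%, below the background of 7.40%. At divergent promoters they had 5, 11, 8 and 7 genes (10.4%, 13.75%, 24.2% and 24.1%). The background there was 9.22%, and the proteasome share was near it. Translation initiation factors had 7 of 44 (15.9%), led by eIF6, eIF3c and eIF2D at ranks 120, 595 and 1207, and 5 genes without each replicate. The eIF6 summit was the one nearest to asRNA:CR45928, and that of eIF4G2 (rank 3436) was nearest to CG33111, so neither can be given to one gene. Chemosensory receptor genes, with 0 of 180, and cuticle protein genes of the Cpr family, with 0 of 70, had no member, and none in any replicate's strongest peaks.

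Regulatory genes were few in each list, so single genes carry the shares, which stand beside the background of 7.40%. The proneural and sensory organ precursor list had 4 of 19 (21.05%). They were neur (a ubiquitin ligase of Notch ligands), sens itself, da (the partner of proneural factors) and insc (of asymmetric division), at ranks 1631, 1827, 2046 and 3292. Replicates 1 and 2 had 6 and 7 genes of this list and replicate 3 had 1. The summit at sens, 54 bp into the gene, ranked 944, 1975 and 11711 in replicates 1, 2 and 3. The embryos carry a sens transgene and no control is listed, so the part of the transgene in this signal was not tested. The Notch and E(spl) list had 4 of 21 (19.05%). They were gro (a corepressor, rank 145), E(spl)m7-HLH (rank 403), E(spl)m3-HLH (rank 823) and mam (a Notch coactivator, rank 1806). The E(spl) proteins are repressors switched on by Notch, and E(spl)m7-HLH ranked 250 and 590 in replicates 2 and 3 and had no peak at its summit in replicate 1.

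Of 14 programmed cell death genes, 4 had a member (28.6%, against 7.40% of all protein-coding genes). They were hid (an antagonist of apoptosis inhibitors, rank 409), p53 (2819), Diap1 (an apoptosis inhibitor, 3522) and Dark (an Apaf-1 homologue, 3756). Each replicate's strongest peaks held 3 genes of this list. Of 13 salivary gland genes, 3 had a member (23.1%): fkh (a forkhead factor needed for the gland, rank 484), crb (apical polarity, 2202) and CrebA (secretory genes, 3469). The fkh summit, 207 bp upstream, ranked 321, 645 and 508 in replicates 1, 2 and 3. Polycomb group genes had 4 of 16, ph-p (ranks 8 and 236), ph-d (2040), Su(z)2 (3091) and Psc (3147). Psc varied widely, at ranks 2197, 10886 and 1383 in replicates 1, 2 and 3. The insulator and promoter factor genes had 3 of 14 (21.4%), Trl (GAGA factor, rank 723), BEAF-32 (2131) and pita (2239). Pair-rule and segment polarity genes had 1 of 16 (6.25%: nkd, a Wnt antagonist, rank 1430) and Hox genes and cofactors 0 of 10. Without replicates 1, 2 and 3 in turn, the background over all protein-coding genes was 753, 724 and 748 genes (5.40%, 5.19% and 5.36%), and 22, 20 and 20 ribosomal protein genes had a member. The proneural list then had 1, 1 and 3 genes, the programmed cell death list 2, 1 and 2 and the Polycomb list 2, 4 and 2. The proteasome and aminoacyl-tRNA synthetase lists each had 1, 1 and 2 genes, and the respiratory chain list 2, 2 and 3. With all replicates, 6 of 14 insulator genes (42.9%) and 3 of 16 Polycomb genes (18.75%) had a divergent-promoter summit. The share over all protein-coding genes was 9.22%. The proneural, Notch and cell death lists had 1 gene each at divergent promoters, and the salivary gland, pair-rule and Hox lists 0.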

How the data were processed

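The authors deposited peak lists in narrowPeak format, each peak with a signal value (unit not stated), a score, a −log10 q-value and a summit. Neither aligner nor caller is given in these sources, and library depth is unknown, so intervals cover counting error over peaks only. Lists on the dm6 build were used and those on dm3 were not, since no annotation of that build was at hand. The labels' age entry cannot be right, so the hours are those of the source description. Replicate numbers are the labels'.

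Transcript starts came from Ensembl release 115 (transposable element insertions left out) on 6 chromosome arms, sequence from RefSeq, and positions are 1-based. The score and q-value columns were not used. Replicates were compared on their 3811 strongest peaks by whether a reproducible summit lay inside one. Motifs were exact matches on both strands in 101 bp windows; flanks were centred 500 bp to each side. Shares have exact binomial 95% intervals. The 6 differences between single and divergent promoters were tested over 3 replicates by an exact two-sided sign-flip permutation test (smallest p = 0.25); for distance and the share upstream no test is reported, since the rule bears on them. Named are the 15 strongest members, the strongest per start class, gene type and gene list, and those at the limits. Members, lists and tests were chosen with earlier results of these data known. Python 3.11.15 with numpy 2.4.6, pandas 2.3.3, scipy 1.17.1 and matplotlib 3.10.9 was used, and the scripts were tested on simulated summits.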

Additional observations from a re-analysis of the deposited data

How the results depend on the processing

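The count of 1207 members was 952 to 1427 under other windows, start sets, annotations and single replicates, 1232 with transposable element insertions counted as starts (an alternative chosen after seeing the data), and 849 to 876 with a replicate left out. By construction it was 589 among the 1905 strongest reproducible peaks and 6883 in the full pooled list, and the 1032 coding genes were 518 among the same 1905. Leaving a replicate out meant keeping those peaks that both other replicates hold among their strongest, still called on pooled data, except for the share found in all replicates.

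Of the differences between single and divergent promoters, those in distance, GC content and DRE core kept their sign under every alternative run, but not their size. With windows of 250 and 1000 bp, the distance difference of 76 bp was 19 and 148 bp, the GC difference of 2.99 points was 5.43 and 1.62, and the DRE difference of −1.78 points was −0.021 and −2.89. Among the 1905 strongest the upstream share turned to 2.06 points and the signal percentile to 1.67. The Senseless core difference turned to 0.375 with first starts only and to 0.409 within 100 bp. The share found in all 3 replicates moved to −9.2 points within 250 bp, and was −0.87 among the 1905 strongest and −1.88 with 2 times as many replicate peaks. For these the cause was not tested.

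The following alternatives were, with 1 exception, added after seeing the data. The share of alternative starts was 30.9% when starts within 100 bp of the first counted as first (planned), 25.5% and 33.99% with windows of 250 and 1000 bp, 33.8% among the 1905 strongest, and 32.2% to 33.2% without each replicate. The DRE core was at 1.57% of members within 25 bp, 5.05% within 100 bp, and 2.00% to 2.87% without each replicate.

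No paired analysis was possible between groups of samples, because the 3 samples form 1 group; the differences between summit classes were taken within each replicate. Unknown depth and 3 replicates limit precision, and no alternative used the dm3 lists.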

Other observations

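Among all 8-letter sequences, the 40 with the largest excess within 50 bp of the members over their flanks were mostly runs of A and T or overlapped the DRE core. One stood apart, CACAGTGG, and it was chosen after its values were seen. It was within 50 bp of 25 members (2.07%), in 0.166% of their flank windows, at 6 of 648 divergent summits (0.926%), at 21 of 1956 summits away from starts (1.07%) and around 0.346% of all annotated single starts. In the strongest peaks of replicates 1, 2 and 3 it was at 21, 26 and 22 single-promoter summits (1.66%, 2.13% and 1.82%), with flanks at 0.435%, 0.286% and 0.371%. The replicates share most peaks with the list in which it was noticed.

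Unlike the DRE core, it was spread over the 4 signal groups, at 6, 7, 8 and 4 members from strongest to weakest. The members that carry it include Ptpmeg2 (rank 134), the second summit of ph-p (rank 236), fkh (rank 484), crb (rank 2202), aop (an ETS-domain repressor, rank 3352) and Tollo (a Toll-like receptor, rank 3515), and 12 of the 25 lay at alternative starts, against 383 of all 1207 members (31.7%). With so many sequences compared, no test was made of it.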
